A study of Mus musculus with 8 samples.

Results

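The genes described here are 41 interferon-stimulated and antigen presentation genes of the mouse, found by their symbols among the 55353 entries of a gene count table. They were read in 8 mRNA sequencing libraries of primary vascular smooth muscle cells, the contractile cells of the artery wall, taken from the aorta. The cells were E12 knockout (E12 KO), wild type for E12 (E12 WT), E47 knockout (E47 KO) or wild type for E47 (E47 WT), with 2 libraries each. E12 and E47 are splice forms of the transcription factor E2A, encoded by Tcf3, and both bind the DNA motif called the E-box. All cells had been frozen and revived in culture, no agent or infection is named in the labels, and neither strain, age nor the way the alleles were made is given in the sources used here. The 2 libraries of a genotype were independent RNA extractions. Nothing says that they came from separate cultures or animals, so each p-value reflects the variation from one extraction to the next, possibly technical, and each genotype may be 1 cell population. Each knockout was set against the WT of the same name as its control, a pairing that the genotype labels give by name only. E12 KO and E12 WT are called the E12 line here, and E47 KO and E47 WT the E47 line. The 2 lines are compared separately below. As given below, the E47 WT libraries held endothelial markers that were nearly absent from E47 KO. The part of this gap in the E47 KO changes was not tested.

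Interferons are secreted proteins that cells release when they sense foreign or misplaced nucleic acid. Type I interferons bind a receptor whose kinases Jak1 and Tyk2 activate STAT proteins, among them Stat2, which joins Irf9 in the complex ISGF3 that binds the interferon-stimulated response element (ISRE) of target promoters. Many cells keep a low tonic level of these transcripts without infection, and in vascular smooth muscle interferon-gamma in particular is known to raise the major histocompatibility complex (MHC) class I genes that show peptides to T cells.

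Of the 41 genes, 34 passed the filter on low counts and were tested. The 7 below it were the DNA sensor Zbp1, the oligoadenylate synthetase family genes Oas1a, Oas2 and Oasl2, the dynamin-like antiviral GTPases Mx1 and Mx2, and Rsad2, which encodes viperin. None of these 7 exceeded 0.819 CPM (counts scaled to the size of the library) in any library. Rsad2 had 0 counts in both E47 KO libraries, against 6 and 7 counts in the E47 WT libraries, and at most 1 count in any E12 library. Mx1 also had 0 counts in both E47 KO libraries, and 2 and 3 in the E47 WT libraries. A count of 0 allows up to 3 counts, which is 0.156 and 0.201 CPM in the E47 KO libraries, and such limits cover counting error only. These 7 genes were thus at the edge of detection at depths of 13909230 to 27517374 counts a library. Other interferon-inducible genes were well above it, among them Ifit2 at 32.6 to 60.3 CPM and Ifit3 at 7.21 to 26.5 CPM over the libraries. The 41 genes together took 0.109% to 0.130% of all counts.

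Per exon length, the level in CPM per kilobase, averaged over the 4 genotypes, differed widely between the genes. B2m, the light chain shared by all MHC class I molecules, had the highest level at 464 CPM per kb. Ifitm2 and Ifitm3, membrane proteins that block virus entry, followed at 109 and 89.5 CPM per kb, ahead of Ifi27 with 70.3 and the class I heavy chains H2-D1 with 38.7 and H2-K1 with 15.8. The transcription factors Irf1, Irf9 and Stat2 had 3.29, 2.98 and 2.92 CPM per kb, and Irf7, the factor that amplifies type I interferon, 0.292. Isg15 and Ifit1, which rise steeply in an interferon response, were at 1.20 and 0.783 CPM per kb.

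**Figure D1:**
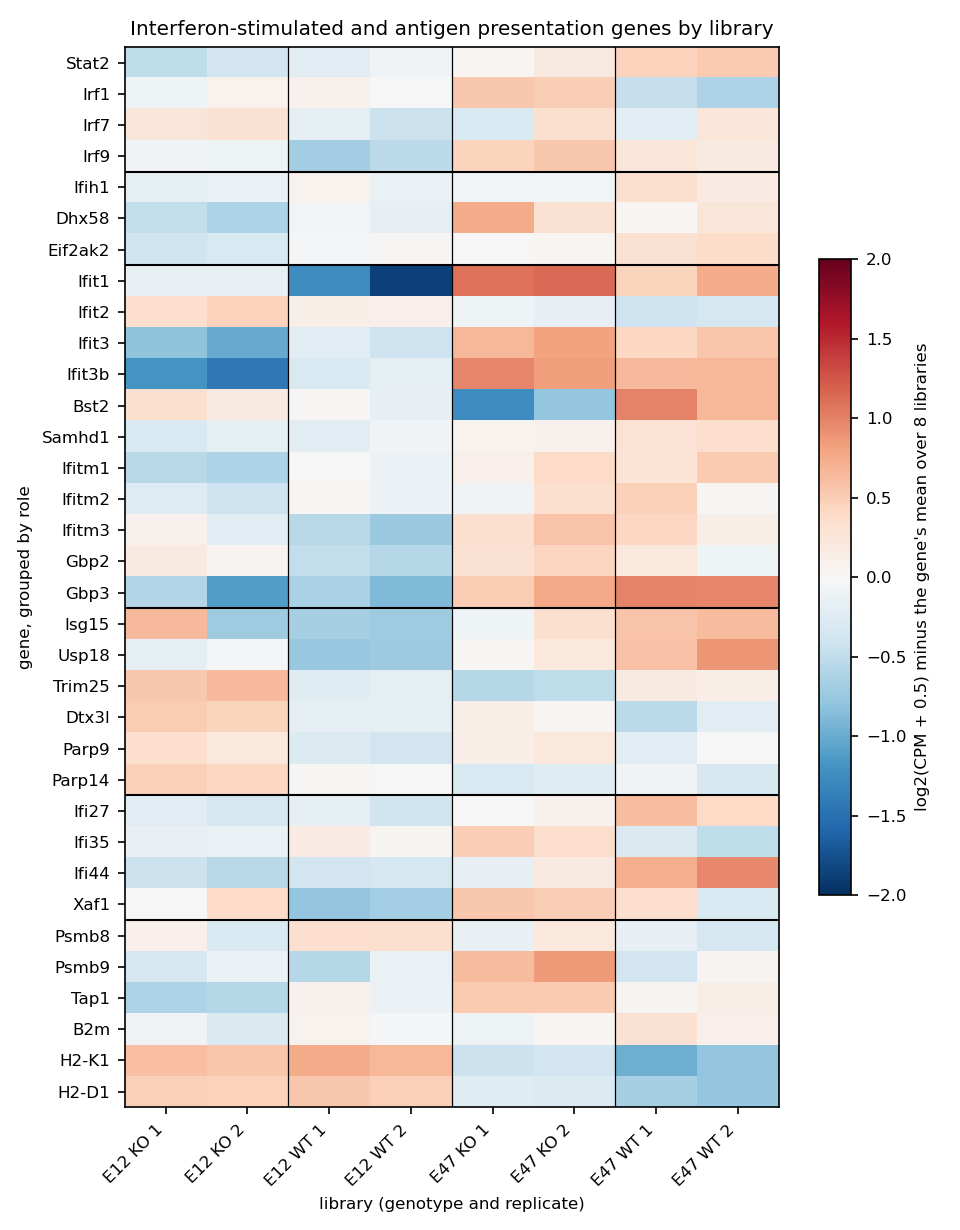
Heat map of the tested genes, grouped by role (rows), in the 8 libraries (columns); colour is log2(CPM + 0.5) minus the gene's mean over the 8 libraries. Ifit1, Ifit3, Ifit3b and Gbp3 are blue in the E12 libraries and red in the E47 libraries, whereas H2-K1 and H2-D1 show the opposite pattern.

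Neither knockout moved the genes in 1 direction. In E12 KO cells 10 of the 34 rose and 5 fell against E12 WT, where 21.9% of all 13992 genes tested rose and 24.5% fell, 46.4% in all (adjusted p under 0.05, edgeR quasi-likelihood test). In E47 KO cells 9 rose and 10 fell against E47 WT, where 27.7% of all genes rose and 27.5% fell, 55.2% in all. With library factors from the upper quartile, 13 rose and 8 fell in E47 KO. The median log2 change of the 34 was -0.06 in E12 KO and 0.21 in E47 KO, with medians over all genes of -0.01 and 0.01. More than 2-fold, 3 rose and 1 fell in E12 KO (3.83% and 8.11% of all genes), and 2 rose and 3 fell in E47 KO (7.7% and 7.19%). Of these 3, Usp18 and Ifi44 passed the filter on low counts only through E47 WT, so their falls were partly set by that filter. The shares of genes that changed were thus near those of all genes, and the results lie in which genes moved and which way.

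The 2 knockouts differed gene by gene. Irf9, Ifit2 and Dtx3l rose in both, Stat2 and Eif2ak2 fell in both, Trim25 and Usp18 rose in E12 KO and fell in E47 KO, and Tap1 fell in E12 KO and rose in E47 KO. A further 7 genes changed in E12 KO alone, 11 in E47 KO alone, and 8 passed the test in neither, which by itself does not show that the knockouts differ. Over all genes tested, 7.5% rose in both and 8.63% fell in both. A rise in E12 KO with a fall in E47 KO was seen for 5.3%, and the reverse for 7.92%. In E12 KO alone 9.11% rose and 7.94% fell, in E47 KO alone 12.3% rose and 13.6% fell, and 27.7% passed in neither. The test of the difference between the knockout changes, E12 minus E47, was passed by 13 of the 34, 6 with a positive and 7 with a negative value (22.9% and 25.7% of all genes, 48.6% in all). More than 2-fold, 5 were positive and 4 negative (6.33% and 11.3% of all genes). The positive ones were Ifit1, Bst2, Isg15, Usp18, Trim25 and Ifi27. The negative ones were Irf1, Ifit3, Ifit3b, Ifi35, Tap1, H2-K1 and H2-D1.

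**Figure D2:**
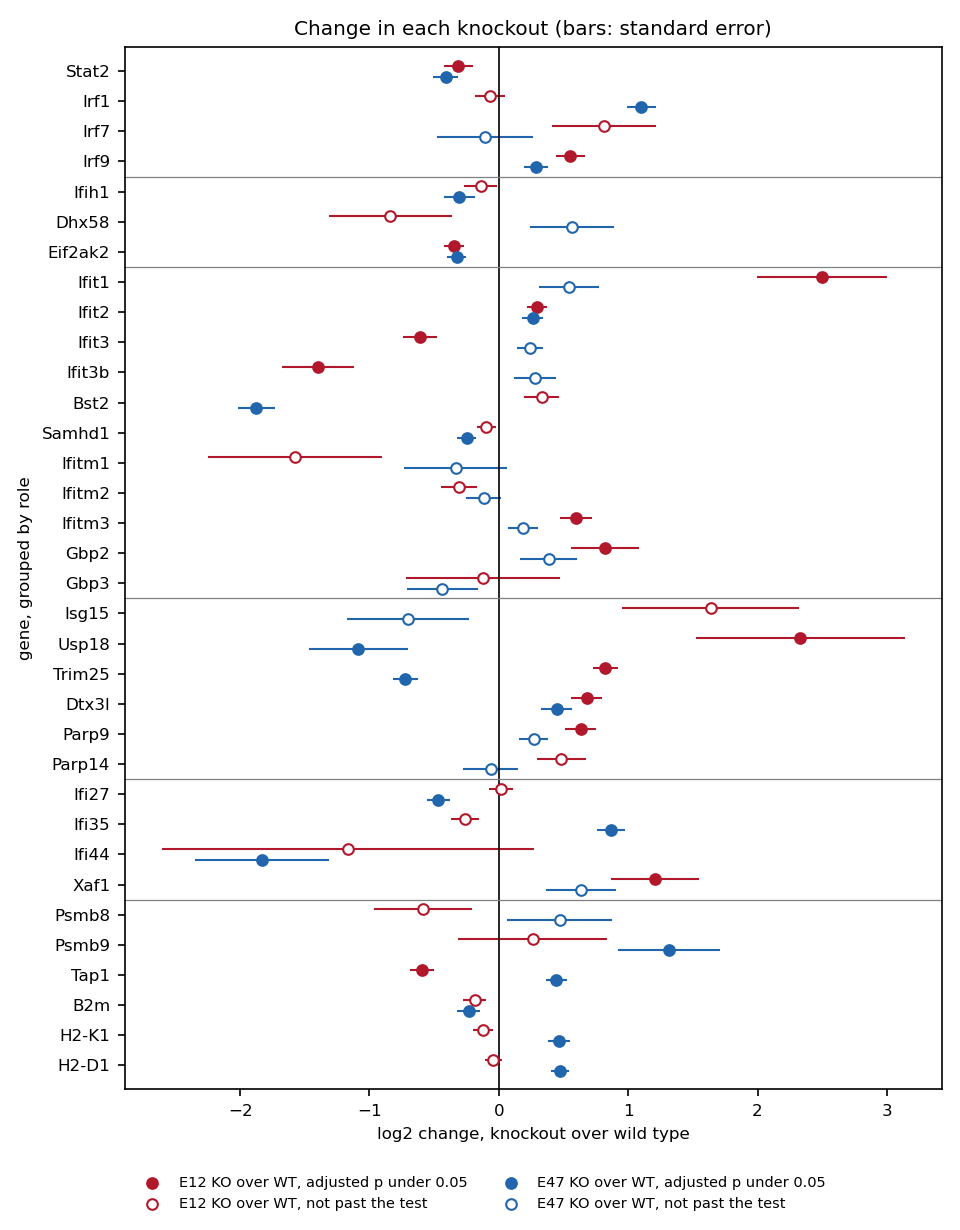
Log2 change of each tested gene in E12 KO over E12 WT (red) and E47 KO over E47 WT (blue), with bars for 1 standard error; filled points have an adjusted p under 0.05. Trim25 lies at 0.82 in E12 and -0.72 in E47, Bst2 at 0.33 and -1.88, and Tap1 at -0.60 and 0.44.

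Promoter letters were read for the 32 genes with a window in RefSeq (GRCm38.p6), from 250 bases before to 50 bases after the annotated start, 300 bases in all. The core of the ISRE was searched as GAAA, then 2 bases of any kind, then GAAA, the gamma-activated site (GAS) of interferon-gamma targets as TTCNNNGAA, and the E-box that E12 and E47 prefer as CAGGTG, each on both strands. Gbp3, Irf1, Irf9, H2-K1 and Ifit2 have more than 1 window, and a gene was counted if any of its windows held the motif. The ISRE core stood in 15 of the 32 genes (46.9%), against 3.99% of 27025 genes with windows. The GAS letters stood in 9 (28.1%, against 9.55%) and CAGGTG in 8 (25%, against 22.6%). A match describes letters only and shows no binding. Of the tested genes with a window, 13 had the ISRE core and 16 did not. Among the 13, 3 rose and 4 fell in E12 KO, and 0 rose and 5 fell in E47 KO. Among the 16 without it, 5 rose and 1 fell in E12 KO, and 9 rose and 3 fell in E47 KO. Over all genes tested, 21.9% rose and 24.5% fell in E12 KO, and 27.7% rose and 27.5% fell in E47 KO. Whether the genes with and without the core differ was not tested.

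The transcription factors of the pathway split in both knockouts. Stat2, a subunit of ISGF3, was at 11.6 and 12.7 CPM in E12 KO libraries, against 14.3 and 15.9 in E12 WT, and at 17.2 and 19.0 CPM in E47 KO, against 23.3 and 24.4 in E47 WT. Both knockouts lay below their controls without overlap, as did 36.3% of all genes tested in E12 KO and 38.5% in E47 KO. The log2 changes were -0.31 (SE 0.111, adjusted p = 0.031) in E12 KO and -0.41 (SE 0.0967, adjusted p = 0.0023) in E47 KO. Without E12 KO replicate 1 or E12 WT replicate 2 the E12 change was -0.23 (adjusted p = 0.20) or -0.24 (adjusted p = 0.18). Irf9, the DNA-binding subunit of the same complex, went the other way. It was at 14.7 and 14.4 CPM in E12 KO, against 9.32 and 10.5 in E12 WT, and at 21.1 and 22.7 CPM in E47 KO, against 18.3 and 17.5 in E47 WT. Irf9 rose by 0.55 (SE 0.111, adjusted p = 0.00086) in E12 KO and by 0.29 (SE 0.0939, adjusted p = 0.017) in E47 KO. The rise in E47 KO was no longer past the test without E47 KO replicate 2 (0.25, adjusted p = 0.094) or E47 WT replicate 2 (0.25, adjusted p = 0.13).

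Irf1, the factor that interferon-gamma induces and that switches on Tap1, Psmb9 and class I genes, rose in E47 KO only. It was at 18.5 and 17.9 CPM in E47 KO, against 9.10 and 8.07 in E47 WT, and at 11.7 and 13.3 CPM in E12 KO, against 13.5 and 12.6 in E12 WT. The E47 libraries were far apart and the E12 libraries overlapped. Of all genes tested, 39.2% were higher in both E47 KO libraries than in E47 WT. The change was 1.10 (SE 0.113, 2.15-fold, adjusted p = 1.0e-06) in E47 KO and -0.07 (SE 0.115, adjusted p = 0.65) in E12 KO, and the difference was -1.17 (SE 0.161, adjusted p = 3.0e-05). Irf7 was low in all libraries, with 1.35 and 1.44 CPM in E12 KO against 0.893 and 0.673 in E12 WT, and 0.780 and 1.47 CPM in E47 KO against 0.860 and 1.36 in E47 WT. Its changes of 0.81 (adjusted p = 0.12) and -0.11 (adjusted p = 0.83) did not pass the test.

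Of the 3 tested sensors of foreign RNA, 1 fell in E12 KO and 2 in E47 KO, and none rose. Over all genes tested, 24.5% fell and 21.9% rose in E12 KO, and 27.5% fell and 27.7% rose in E47 KO. Eif2ak2 encodes PKR, a kinase that stops translation when it binds double-stranded RNA. It fell by 0.35 (SE 0.0777, adjusted p = 0.0019) in E12 KO, with 31.8 ± 1.68 CPM against 40.5 ± 1.35 in E12 WT, and by 0.33 (SE 0.0736, adjusted p = 0.0017) in E47 KO, with 41.2 ± 0.716 CPM against 51.5 ± 1.48 in E47 WT (mean ± SD, n = 2 each). The difference between these changes was -0.02 (SE 0.107, adjusted p = 0.88). Ifih1, the long RNA sensor MDA5, fell by 0.30 (SE 0.12, adjusted p = 0.044) in E47 KO, a call that was lost in 6 of the 8 fits without 1 library, in which the adjusted p reached 0.19. Dhx58, the regulator LGP2, changed by -0.84 in E12 KO (adjusted p = 0.17) and by 0.57 in E47 KO (adjusted p = 0.16).

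The IFIT genes, which encode proteins that bind viral RNA, lie side by side on chromosome 19 between 34550694 and 34650009. In E12 KO 2 of them rose and 2 fell, where 21.9% of all genes rose and 24.5% fell. In E47 KO all 4 were higher in both libraries than in E47 WT, as were 39.2% of all genes tested. Ifit2 alone passed the test there. Of the 4, Ifit2 stands first, then Ifit3, Ifit3b and Ifit1, all on the plus strand. Of the 50-base stretches of Ifit1 exons, 7.1% also occur in other genes, mostly Ifit1bl2. Ifit1 was at 1.40 and 1.38 CPM in E12 KO, against 0.383 and 0.0747 in E12 WT, which is 29 and 23 counts against 6 and 1. Both knockout libraries were higher, as for 35% of all genes tested. The change was 2.50 on the log2 scale (SE 0.5, adjusted p = 0.00083), and its size rests on few WT counts, being 4.10 without E12 WT replicate 1 and 1.84 without E12 WT replicate 2. In E47 KO, Ifit1 was at 3.95 and 4.08 CPM, against 2.36 and 3.0 in E47 WT (0.54, SE 0.232, adjusted p = 0.060). The difference of 1.95 (SE 0.574, adjusted p = 0.011) was 3.55 without E12 WT replicate 1 and was not past the test without E12 WT replicate 2 (1.30, adjusted p = 0.080).

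Ifit3 and Ifit3b fell in E12 KO, where Ifit1 and Ifit2 rose. Ifit3 was at 8.35 and 7.21 CPM in E12 KO, against 12.8 and 11.1 in E12 WT (-0.61, SE 0.132, adjusted p = 0.0015), and at 24 and 26.5 CPM in E47 KO, against 20.1 and 22.2 in E47 WT (0.24, SE 0.101, adjusted p = 0.055). Ifit3b was at 1.01 and 0.781 CPM in E12 KO, against 2.30 and 2.54 in E12 WT (-1.40, SE 0.278, adjusted p = 0.00076), and at 6.34 and 5.68 CPM in E47 KO, against 4.94 and 4.99 in E47 WT (0.28, SE 0.163, adjusted p = 0.16). The differences of -0.85 (SE 0.167, adjusted p = 0.00065) and -1.68 (SE 0.322, adjusted p = 0.00056) both passed the test. These are near copies: 51.2% of the 50-base stretches of Ifit3 exons and 45% of those of Ifit3b also occur in other genes, so reads could have been split between them and the separate values are uncertain. Ifit2, with no such shared stretch, was at 55.6 and 60.3 CPM in E12 KO against 47.3 and 47 in E12 WT (0.30, SE 0.0753, adjusted p = 0.0047), and at 41.4 and 38.8 CPM in E47 KO against 32.6 and 34.3 in E47 WT (0.26, SE 0.0782, adjusted p = 0.011). Without E47 KO replicate 1 or E47 WT replicate 1 the E47 rise of Ifit2 was 0.22 (adjusted p = 0.081) or 0.23 (adjusted p = 0.071).

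The promoters of the 4 IFIT genes are shown because the 3 with paired ISRE cores, in capitals, moved in opposite directions in E12 KO, while the fourth, Ifit2, has none in this stretch. Each runs from 200 to 51 bases before the start on the plus strand of GRCm38.p6, at chr19:34640689-34640838 for Ifit1, chr19:34550494-34550643 for Ifit2, chr19:34583329-34583478 for Ifit3 and chr19:34607757-34607906 for Ifit3b. The windows of Ifit3 and Ifit3b share a run of 169 bases.
Ifit1: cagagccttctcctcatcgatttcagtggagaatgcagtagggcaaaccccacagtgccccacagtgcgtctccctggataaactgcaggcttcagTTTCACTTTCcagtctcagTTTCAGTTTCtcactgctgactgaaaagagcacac
Ifit2: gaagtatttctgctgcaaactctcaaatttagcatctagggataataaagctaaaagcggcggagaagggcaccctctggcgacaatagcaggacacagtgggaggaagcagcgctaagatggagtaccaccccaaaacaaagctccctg
Ifit3: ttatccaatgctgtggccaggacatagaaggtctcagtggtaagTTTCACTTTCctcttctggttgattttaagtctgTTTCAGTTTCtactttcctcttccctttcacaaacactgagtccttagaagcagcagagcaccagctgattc
Ifit3b: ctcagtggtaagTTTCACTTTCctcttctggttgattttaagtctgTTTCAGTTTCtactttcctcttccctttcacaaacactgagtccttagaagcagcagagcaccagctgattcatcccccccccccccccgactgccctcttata

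Bst2, which encodes tetherin, a membrane protein that holds budding virus at the cell surface, had the lowest p of the 34 genes in E47 KO. It was at 9.77 and 13.7 CPM in E47 KO, against 48.0 and 37.9 in E47 WT, and at 29.98 and 27 CPM in E12 KO, against 24.2 and 21.1 in E12 WT. Both E47 KO libraries were the lowest of the 8 and both E47 WT libraries the highest. Of all genes tested, 38.5% were lower in both E47 KO libraries than in E47 WT. The fall in E47 KO was -1.88 (SE 0.144, 3.67-fold lower, adjusted p = 4.6e-08). In E12 KO the value was 0.33 (SE 0.138, adjusted p = 0.063), and the difference was 2.21 (SE 0.2, adjusted p = 4.0e-07). The value of E12 KO passed the test in 5 of the 8 fits without 1 library.

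Among the other effectors, Ifitm3 rose in E12 KO by 0.59 (SE 0.124, adjusted p = 0.0011), with 55.8 ± 8.01 CPM against 37.0 ± 3.37 in E12 WT. Its change in E47 KO was 0.18 (adjusted p = 0.19). Ifitm2, of which 48.5% of 50-base stretches occur elsewhere and 40.9% of the exons overlap the model Gm45717, changed by -0.31 and -0.12 and passed the test in neither knockout, like the scarce Ifitm1. Gbp2, an interferon-gamma-induced GTPase, rose by 0.82 (SE 0.263, adjusted p = 0.019) in E12 KO on 57 and 41 counts against 24 and 19. That call was lost without E12 KO replicate 1 (0.74, adjusted p = 0.10), E12 WT replicate 1 (0.88, adjusted p = 0.060) or E12 WT replicate 2 (0.77, adjusted p = 0.073). Its neighbour Gbp3 changed by -0.12 and -0.44, past the test in neither. Samhd1, which depletes the nucleotides that retroviruses need, fell by 0.25 (SE 0.0717, adjusted p = 0.0087) in E47 KO, with 136 ± 0.528 CPM against 161 ± 5.16 in E47 WT, and the adjusted p was 0.059 without E47 KO replicate 1 and 0.082 without E47 WT replicate 2.

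Of the 6 genes of the ISG15 and ubiquitin system, 4 rose and 0 fell in E12 KO, where 21.9% of all genes rose and 24.5% fell, and 1 rose and 2 fell in E47 KO, where 27.7% of all genes rose and 27.5% fell. One of the 4, Usp18, loses its call without any 1 of the E12 libraries. Trim25, the ubiquitin ligase that activates the sensor RIG-I and also attaches ISG15, was at 24.3 and 26.3 CPM in E12 KO, against 13.9 and 14.7 in E12 WT, and at 11 and 11.6 CPM in E47 KO, against 18.8 and 18.3 in E47 WT. The libraries of each genotype lay close together and no 2 genotypes overlapped. Of all genes tested, 35% were higher in both E12 KO libraries than in E12 WT, and 38.5% lower in both E47 KO libraries than in E47 WT. Trim25 rose by 0.82 (SE 0.0955, adjusted p = 5.4e-06) in E12 KO and fell by 0.72 (SE 0.0996, adjusted p = 2.3e-05) in E47 KO, a difference of 1.54 (SE 0.138, adjusted p = 3.4e-07). Usp18, which removes ISG15 from proteins and silences the type I receptor, moved the same way on far fewer counts. It passed the filter on low counts only through E47 WT, so its fall in E47 KO was partly set by that filter. Usp18 had 7 and 7 counts in E12 KO, against 1 and 1 in E12 WT, a ratio of 5.44 with an exact 95% counting interval of 1.25 to 49.3. That interval adds the 2 libraries of a genotype and covers counting error only, so it is too narrow if replicates vary more. In E47 KO, Usp18 had 9 and 9 counts, against 13 and 32 in E47 WT (-1.09, SE 0.383, adjusted p = 0.026). The fitted change in E12 KO of 2.33 (SE 0.808, adjusted p = 0.028) depends on the prior count and was lost without any 1 of the 4 E12 libraries, with adjusted p from 0.065 to 0.15, and the E47 fall was lost without E47 KO replicate 1 (-0.89, adjusted p = 0.19), E47 KO replicate 2 (-1.25, adjusted p = 0.065) or E47 WT replicate 2 (-0.81, adjusted p = 0.29).

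Isg15 itself, a ubiquitin-like protein, showed a library that stood apart. It had 32 and 5 counts in E12 KO, or 1.54 and 0.300 CPM, against 0.319 and 0.299 CPM in E12 WT, and 0.728 and 1.14 CPM in E47 KO, against 1.43 and 1.52 in E47 WT. Replicate 1 of E12 KO was as high as E47 WT and replicate 2 as low as E12 WT. The changes of 1.64 (SE 0.684, adjusted p = 0.063) and -0.70 (SE 0.473, adjusted p = 0.22) did not pass the test. The difference of 2.34 (SE 0.832, adjusted p = 0.030) was 0.66 (adjusted p = 0.60) without E12 KO replicate 1, 2.02 (adjusted p = 0.10) without E47 KO replicate 1 and 2.28 (adjusted p = 0.077) without E47 WT replicate 2.

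Dtx3l and Parp9 encode partners in 1 ubiquitin ligase and ADP-ribosylation complex and start 681 bases apart on opposite strands of chromosome 16. Dtx3l was at 17.7 and 17.0 CPM in E12 KO against 10.9 and 10.8 in E12 WT (0.68, SE 0.118, adjusted p = 0.00026), and at 13.5 and 12.8 CPM in E47 KO against 8.38 and 10.5 in E47 WT (0.45, SE 0.121, adjusted p = 0.0057). Parp9 was at 15.4 and 14.2 CPM in E12 KO against 9.89 and 9.19 in E12 WT (0.63, SE 0.121, adjusted p = 0.00058), and at 13.4 and 14.0 CPM in E47 KO against 10.2 and 12.1 in E47 WT (0.27, SE 0.115, adjusted p = 0.061). The knockout libraries were above those of their controls for both genes and in both lines. Such a gap was seen for 35% of all genes tested in E12 KO and 39.2% in E47 KO. Without E47 WT replicate 1 the E47 rise of Dtx3l was 0.32 (adjusted p = 0.053). The exons of the pair overlap by 8.0% of Dtx3l and 9.4% of Parp9, and strand was not kept. Parp14, a related ADP-ribosyltransferase nearby, changed by 0.48 in E12 KO (SE 0.191, adjusted p = 0.0504) and by -0.06 in E47 KO (adjusted p = 0.84).

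The promoters of Bst2, Trim25 and Isg15 are shown because all 3 genes passed the test of the difference between the knockout changes and have one or both motifs. Capitals mark the ISRE cores and the E-box CAGGTG or its complement CACCTG. Bst2 is read on the minus strand at chr8:71537543-71537692 and Trim25 on the plus strand at chr11:88999183-88999332, both from 220 to 71 bases before the start, and Isg15 on the minus strand at chr4:156200819-156200968, in the 150 bases before it. Bst2 has both an E-box and 2 overlapping ISRE cores, Trim25 an E-box alone, and Isg15 a run of 3 overlapping ISRE cores.
Bst2: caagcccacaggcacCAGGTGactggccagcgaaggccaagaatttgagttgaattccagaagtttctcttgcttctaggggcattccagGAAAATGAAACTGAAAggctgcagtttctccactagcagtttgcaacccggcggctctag
Trim25: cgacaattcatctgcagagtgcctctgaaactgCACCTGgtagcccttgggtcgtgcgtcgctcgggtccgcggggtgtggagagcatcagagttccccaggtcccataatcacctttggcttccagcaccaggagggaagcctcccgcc
Isg15: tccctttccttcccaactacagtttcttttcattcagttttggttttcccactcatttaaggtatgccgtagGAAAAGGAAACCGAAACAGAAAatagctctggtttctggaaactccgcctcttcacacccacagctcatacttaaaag

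**Figure D3:**
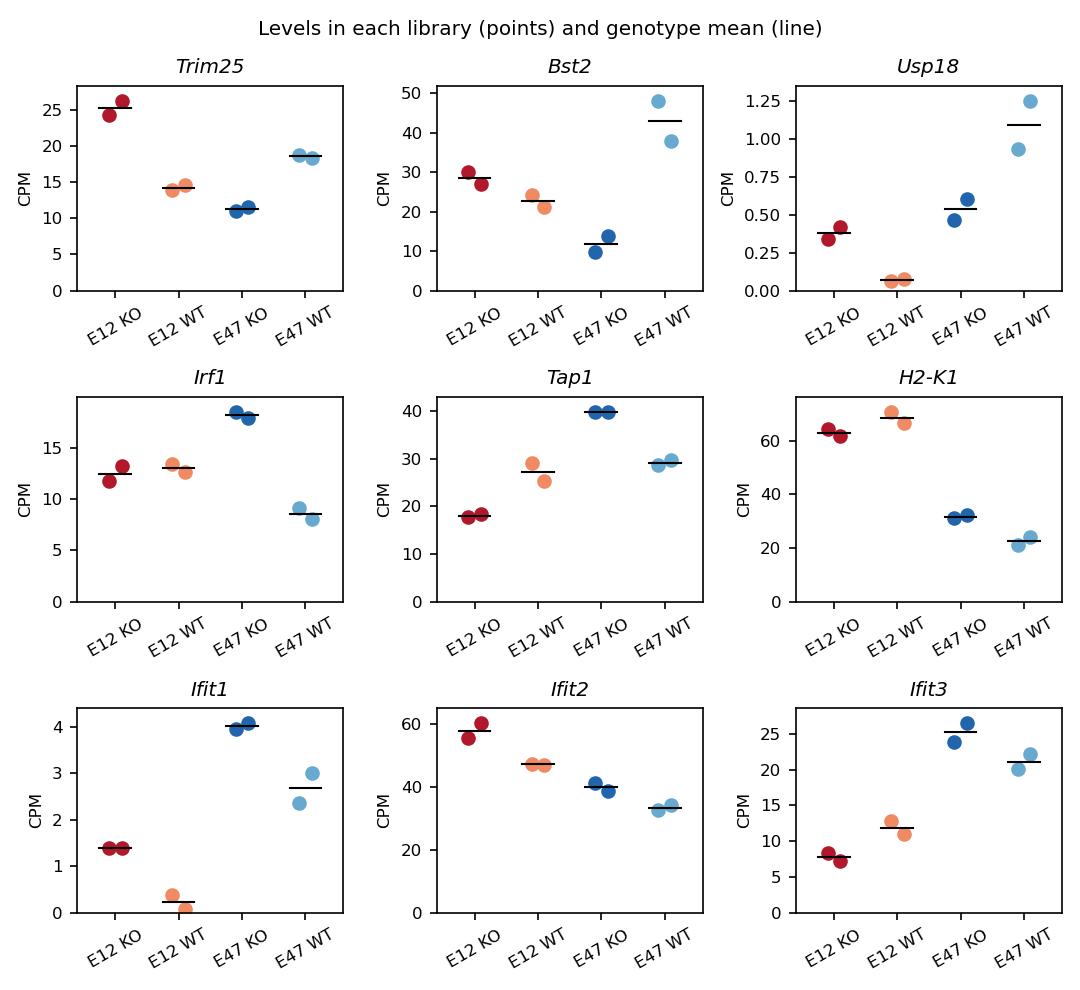
Level in CPM (linear axes from 0) of 9 genes in each library, as points, with the mean of the 2 libraries of a genotype as a line. Trim25 and Usp18 are higher in E12 KO than in E12 WT and lower in E47 KO than in E47 WT, whereas Irf1 separates the E47 genotypes alone and H2-K1 separates the lines.

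A further 4 interferon-stimulated genes have less settled functions. Ifi27 fell by 0.47 (SE 0.0892, adjusted p = 0.00044) in E47 KO, with 100.5 and 107 CPM against 155 and 133 in E47 WT, and was level in E12 KO (0.01, SE 0.092, adjusted p = 0.92), with 86.7 and 79.4 CPM against 88.2 and 76.2 in E12 WT. Ifi35 rose by 0.87 (SE 0.107, adjusted p = 7.3e-06) in E47 KO, with 21.7 and 19.7 CPM against 12.4 and 10.7 in E47 WT, and was at 13.8 and 14.0 CPM in E12 KO against 17.3 and 15.9 in E12 WT (-0.26, SE 0.109, adjusted p = 0.065). The differences of 0.48 (SE 0.128, adjusted p = 0.0060) for Ifi27 and -1.13 (SE 0.153, adjusted p = 2.6e-05) for Ifi35 passed the test, though 16.8% of Ifi35 exons overlap an antisense model. Xaf1, a gene linked to apoptosis, rose by 1.21 (SE 0.34, adjusted p = 0.0091) in E12 KO and lost that call without E12 KO replicate 2 (1.0, adjusted p = 0.063). Ifi44 had 3 and 5 counts in E47 KO, against 10 and 24 in E47 WT (-1.83, SE 0.519, adjusted p = 0.0078), a call lost without E47 KO replicate 1 (-1.32) or E47 WT replicate 2 (-1.58). It passed the filter on low counts only through E47 WT, so this fall was partly set by that filter.

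Of the 6 antigen presentation genes, 4 rose (Tap1, Psmb9, H2-K1 and H2-D1) and 1 fell (B2m) in E47 KO, with a median log2 change of 0.47, where 27.7% of all genes rose and 27.5% fell. In E12 KO 0 rose and 1 fell (Tap1), with a median of -0.15, where 21.9% of all genes rose and 24.5% fell. The difference between the knockout changes passed the test for Tap1, H2-K1 and H2-D1, and not for Psmb9 (adjusted p = 0.25), Psmb8 (adjusted p = 0.13) or B2m (adjusted p = 0.79). Tap1, a subunit of the pump that carries peptides into the endoplasmic reticulum, was at 39.8 and 39.8 CPM in E47 KO, against 28.7 and 29.7 in E47 WT, and at 17.8 and 18.3 CPM in E12 KO, against 29.1 and 25.3 in E12 WT. The 2 knockouts thus lay on opposite sides of 2 similar controls. Tap1 rose by 0.44 (SE 0.0823, adjusted p = 0.00034) in E47 KO and fell by 0.60 (SE 0.0917, adjusted p = 8.5e-05) in E12 KO, and the difference was -1.04 (SE 0.123, adjusted p = 6.7e-06). Psmb9, an immunoproteasome subunit that cuts peptides for class I, was at 1.25 and 1.54 CPM in E47 KO, against 0.358 and 0.663 in E47 WT (1.31, SE 0.395, adjusted p = 0.011), and at 0.386 and 0.541 CPM in E12 KO, against 0.255 and 0.523 in E12 WT (0.26, SE 0.573, adjusted p = 0.74). Only in E47 KO did it exceed 0.663 CPM, so the filter on low counts may have kept it through that group. The rise of Psmb9 was 1.18 (adjusted p = 0.074) without E47 KO replicate 2, 1.05 (adjusted p = 0.079) without E47 WT replicate 1 and 1.92 without E47 WT replicate 2.

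Tap1 and Psmb9 are transcribed away from a shared promoter, and their RefSeq starts lie 226 bases apart on chromosome 17. In GENCODE the pair overlap on opposite strands, by 5.8% of Psmb9 exons and 3.9% of Tap1 exons, so in these unstranded libraries some reads of the more abundant Tap1 could count for Psmb9 or be left out. The stretch between them, chr17:34187331-34187555 on the plus strand, is shown because both genes rose in E47 KO. It holds a single CAGGTG, in capitals, 90 bases before the Tap1 start, and no ISRE core.
Tap1: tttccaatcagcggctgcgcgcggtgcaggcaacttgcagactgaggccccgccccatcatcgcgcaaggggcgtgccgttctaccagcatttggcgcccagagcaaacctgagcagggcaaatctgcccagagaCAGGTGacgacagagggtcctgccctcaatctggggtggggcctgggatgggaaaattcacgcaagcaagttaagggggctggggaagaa

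H2-K1 and H2-D1, the classical class I heavy chains, rose in E47 KO by similar amounts. H2-K1 was at 31.1 and 32.1 CPM in E47 KO against 21.1 and 24.1 in E47 WT (0.47, SE 0.0863, adjusted p = 0.00033), and at 64.2 and 61.8 CPM in E12 KO against 70.6 and 66.5 in E12 WT (-0.12, SE 0.0759, adjusted p = 0.20). H2-D1 was at 79.5 and 77.9 CPM in E47 KO against 59.1 and 54.5 in E47 WT (0.48, SE 0.0712, adjusted p = 5.1e-05), and at 130.3 and 129 CPM in E12 KO against 137 and 130.3 in E12 WT (-0.04, SE 0.0678, adjusted p = 0.65). The differences were -0.59 (SE 0.115, adjusted p = 0.00063) and -0.52 (SE 0.0983, adjusted p = 0.00052). Of their 50-base stretches, 9.6% for H2-K1 and 12.8% for H2-D1 occur in other genes, mostly of the same family. B2m did not follow: it was at 368 and 408 CPM in E47 KO against 488 and 424 in E47 WT (-0.23, SE 0.0889, adjusted p = 0.038), and at 378 and 325 CPM in E12 KO against 415 and 385 in E12 WT (-0.19, SE 0.0892, adjusted p = 0.10). Its fall in E47 KO was not past the test without E47 KO replicate 1 (-0.15, adjusted p = 0.30) or E47 WT replicate 1 (-0.13, adjusted p = 0.32). Psmb8, another immunoproteasome subunit, was at 0.728 and 1.07 CPM in E47 KO against 0.716 and 0.585 in E47 WT, and at 0.965 and 0.601 CPM in E12 KO against 1.21 and 1.20 in E12 WT, with no change past the test.

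Between the lines the genes leaned 1 way. In E12 WT against E47 WT 17 of the 34 were lower and 5 higher (27.6% and 27.8% of all genes, 55.4% in all), and in E12 KO against E47 KO 18 were lower and 7 higher (27% and 25.9%, 52.9% in all). The medians were -0.50 between the wild types and -0.38 between the knockouts, with medians over all genes of 0.00 and -0.01. More than 2-fold, 6 were lower and 2 higher between the wild types (9.41% and 8.43% of all genes), and 9 lower and 2 higher between the knockouts (10.1% and 4.53%). These counts and medians include genes that passed the filter on low counts through the E47 line. Usp18 and Ifi44 passed it only through E47 WT, and Gbp3 and Ifitm1 had at most 10 and 7 counts in any E12 library. Lower values of these genes in the E12 line were thus partly set by the filter. Of the 13 tested genes with an ISRE core, 10 were lower and 0 higher in E12 WT than in E47 WT, and 8 lower and 1 higher in E12 KO than in E47 KO, the exception being Bst2. Of the 16 without the core, 5 were lower and 5 higher between the wild types, and 8 lower and 5 higher between the knockouts. These comparisons set 2 cell populations side by side, so line, passage and origin cannot be told apart.

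**Figure D4:**
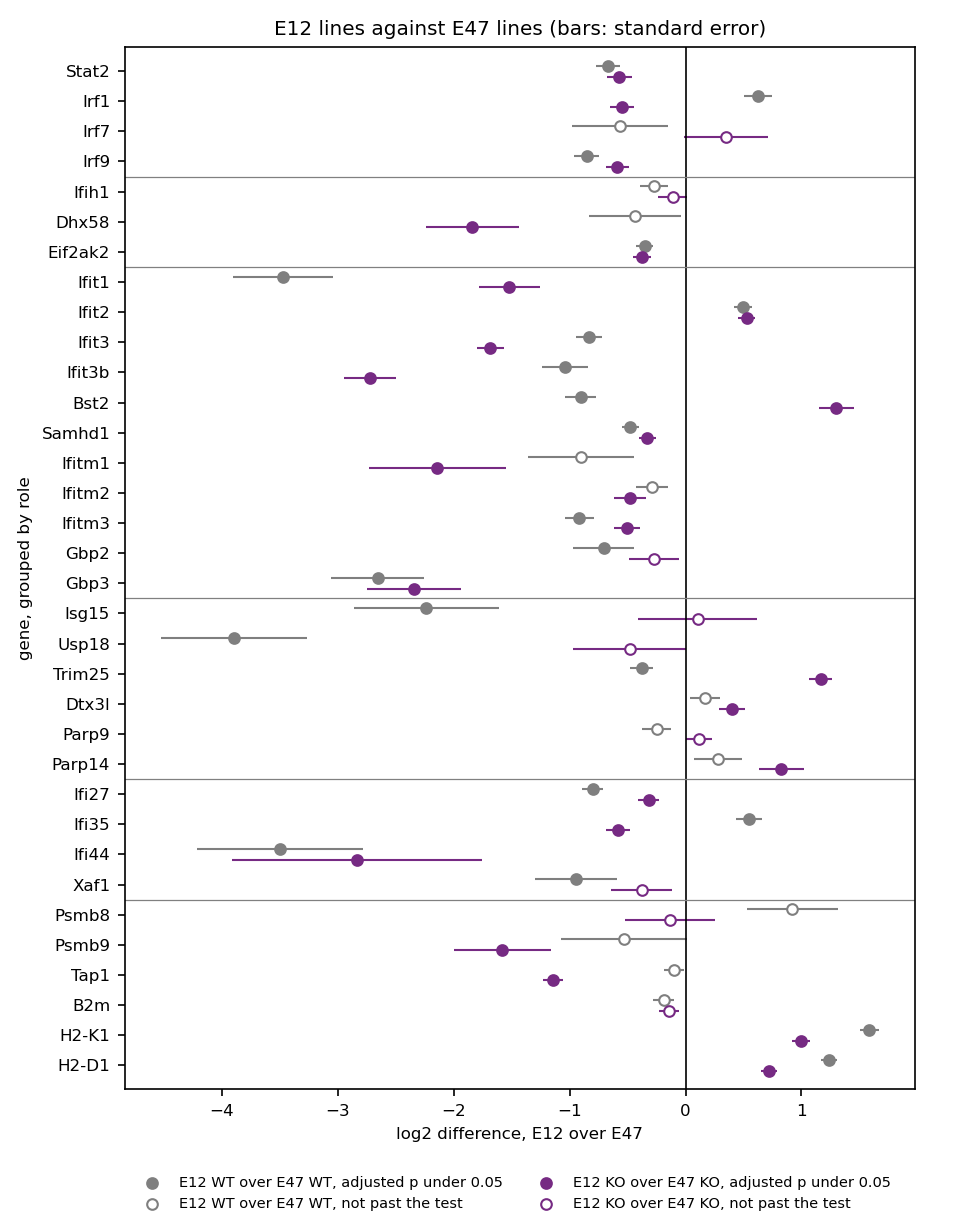
Log2 difference of each tested gene in E12 WT over E47 WT (grey) and E12 KO over E47 KO (purple), with bars for 1 standard error; filled points have an adjusted p under 0.05. H2-K1 (1.59 and 1.0) and H2-D1 (1.24 and 0.72) lie right of 0 in both, whereas Ifit1 (-3.48 and -1.52) and Ifit3b (-1.04 and -2.72) lie left of 0 in both.

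Several scarce inducible genes differed between the lines. Ifit1 was lower in E12 WT than in E47 WT (log2 -3.48, SE 0.433, adjusted p = 7.2e-06, and -5.07 or -2.82 without E12 WT replicate 1 or 2), and in E12 KO than in E47 KO (-1.52, SE 0.265, adjusted p = 0.00020). Gbp3 was lower in the E12 line in both genotypes, with -2.66 (SE 0.4, adjusted p = 4.8e-05) between the wild types and -2.34 (SE 0.409, adjusted p = 0.00021) between the knockouts. Usp18 had 2 counts in both E12 WT libraries together and 45 in E47 WT, a ratio of 0.0606 (exact 95% counting interval 0.00712 to 0.232), and did not pass the test between the knockouts (-0.48, adjusted p = 0.43). Ifi44 had 2 counts in E12 WT and 34 in E47 WT, a ratio of 0.0802 (0.00934 to 0.313), and 1 in E12 KO and 8 in E47 KO, a ratio of 0.114 (0.00258 to 0.853). These intervals add the 2 libraries of a genotype and cover counting error only, so they are too narrow if replicates vary more. For Gbp3, Usp18 and Ifi44, which passed the filter through the E47 line, a lower value in the E12 line was partly set by that filter.

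Ifit3 and Ifit3b were further apart between the knockouts than between the wild types, by -1.69 (SE 0.117, adjusted p = 1.5e-08) and -2.72 (SE 0.226, adjusted p = 1.1e-07) against -0.83 (SE 0.115, adjusted p = 2.0e-05) and -1.04 (SE 0.2, adjusted p = 0.00042), the gap tested above as the difference of the knockout changes. Ifi27 was lower in E12 WT than in E47 WT (-0.80, SE 0.0908, adjusted p = 2.7e-06), as was Irf9 (-0.85, SE 0.108, adjusted p = 8.6e-06). Between the knockouts they were lower by smaller values, -0.32 (adjusted p = 0.0082) for Ifi27 and -0.59 (adjusted p = 0.00012) for Irf9. The value for Ifi27 missed the test without E12 KO replicate 2 (-0.25, adjusted p = 0.083) or E47 KO replicate 2 (-0.27, adjusted p = 0.080).

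Against that direction, the class I heavy chains were higher in the E12 line. H2-K1 was 3.0-fold higher in E12 WT than in E47 WT (log2 1.59, SE 0.0826, adjusted p = 3.2e-10) and 2.0-fold higher in E12 KO than in E47 KO (1.0, SE 0.0799, adjusted p = 7.5e-08). H2-D1 was 2.36-fold higher between the wild types (1.24, SE 0.0707, adjusted p = 9.9e-10) and 1.65-fold higher between the knockouts (0.72, SE 0.069, adjusted p = 5.3e-07). All 4 E12 libraries exceeded all 4 E47 libraries for both genes. Of all genes tested, 38.3% were higher in both libraries of E12 WT than in E47 WT, and 37.8% in both of E12 KO than in E47 KO. No source used here names the H2 haplotype of either line, and how well reads of each line match these genes in GRCm38, which bears on the folds between lines, was not tested. B2m, their partner, did not pass the test in either comparison (-0.19, adjusted p = 0.087, and -0.14, adjusted p = 0.20), and Tap1 was lower in E12 KO than in E47 KO (-1.14, SE 0.087, adjusted p = 4.1e-08) but not between the wild types (-0.10, adjusted p = 0.34). Bst2 and Trim25 changed sides. Bst2 was lower in E12 WT than in E47 WT (-0.91, SE 0.134, adjusted p = 4.0e-05) and higher in E12 KO than in E47 KO (1.30, SE 0.149, adjusted p = 3.6e-06), and Trim25 likewise (-0.38, adjusted p = 0.0043, and 1.17, SE 0.0965, adjusted p = 1.1e-07).

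Counted by genotype, the mean was highest in E47 WT for 13 of the 34 genes, in E47 KO for 12, in E12 KO for 6 and in E12 WT for 3. Over all genes these shares were 31.4%, 20.1%, 29% and 19.5%. Usp18 and Ifi44, highest in E47 WT, passed the filter on low counts only through that group. The lowest mean was in E12 KO for 13, in E12 WT for 11, in E47 WT for 7 and in E47 KO for 3, against 29.4%, 18.7%, 31.9% and 20.1% of all genes. The summed level of the 6 genes of the ISG15 and ubiquitin system was 64.0 and 62.7 CPM in E12 KO, against 38.4 and 38.3 in E12 WT, and 41.6 and 42.8 CPM in E47 KO, against 42.9 and 46.2 in E47 WT. Trim25, Dtx3l and Parp9 made up most of this sum, with Isg15 and Usp18 at most 1.54 and 1.25 CPM in any library.

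The interferons themselves were close to undetected. Of 12 ligand genes listed, among them Ifnb1, Ifng, Ifna1 and Ifnl3, none passed the filter, 8 had 0 counts in all 8 libraries, and the summed level was at most 0.334 CPM in any library. Of the kinases that the interferon receptors use, Jak1 rose by 0.38 in E12 KO (SE 0.069, adjusted p = 0.00040) and fell by 0.30 in E47 KO (SE 0.0683, adjusted p = 0.0016), with a difference of 0.68 (SE 0.0971, adjusted p = 4.1e-05). Tyk2 rose by 0.24 in E12 KO (SE 0.0916, adjusted p = 0.044) and fell by 0.24 in E47 KO (SE 0.0937, adjusted p = 0.043). Jak2, a kinase of the interferon-gamma receptor, fell by 0.28 in E12 KO (SE 0.0854, adjusted p = 0.014) and changed by -0.15 in E47 KO (adjusted p = 0.15). The type I receptor chain Ifnar1 rose in E12 KO (0.34, SE 0.069, adjusted p = 0.00093) and the type II chain Ifngr1 in E47 KO (0.30, SE 0.0753, adjusted p = 0.0037).

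**Figure D5:**
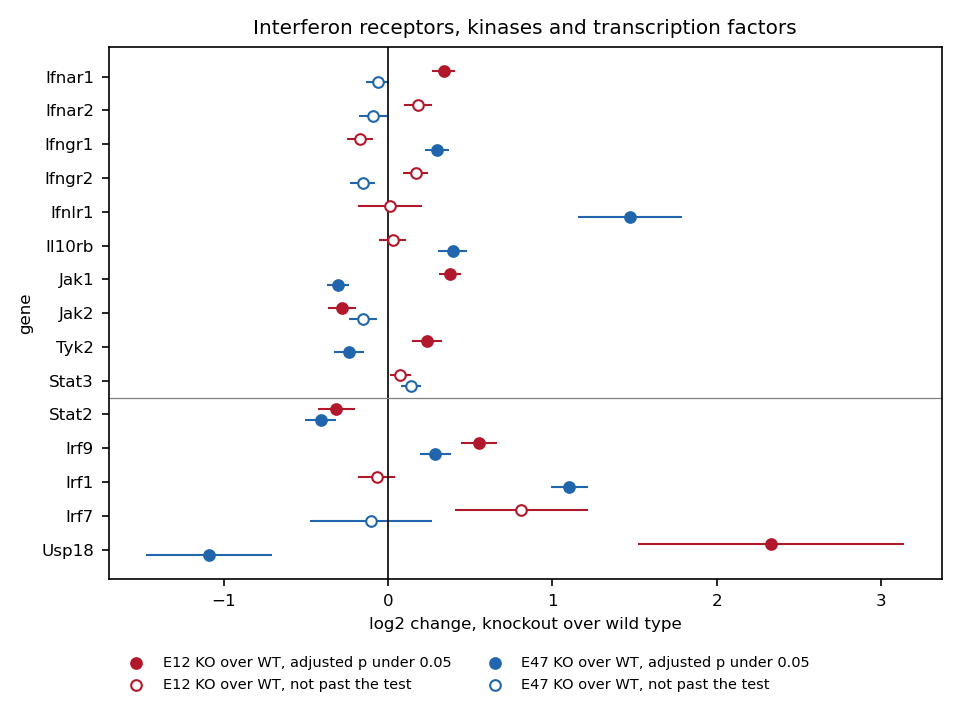
Log2 change of interferon receptors, kinases and Stat3 (above the line) and of 5 of the 41 genes (below it) in E12 KO over E12 WT (red) and E47 KO over E47 WT (blue), with bars for 1 standard error; filled points have an adjusted p under 0.05. Jak1, Tyk2 and Usp18 lie right of 0 in E12 and left of 0 in E47, past the test in both.

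Other genes of the class I pathway, none of them among the 41, are given for context. For each count in this paragraph, 27.7% of all genes rose and 27.5% fell in E47 KO. In E12 KO 21.9% rose and 24.5% fell. Of 10 tested loading genes, 4 rose and 1 fell in E47 KO, and 3 rose and 6 fell in E12 KO. Tapbp, or tapasin, which joins class I molecules to the peptide pump, rose by 0.62 in E47 KO (SE 0.0711, adjusted p = 3.4e-06) and fell by 0.31 in E12 KO (SE 0.0717, adjusted p = 0.0026), as Tap1 did. The difference for Tapbp was -0.93 (SE 0.101, adjusted p = 2.7e-06). Psme1, a subunit of the interferon-inducible proteasome activator, rose in both, by 0.71 (SE 0.0828, adjusted p = 4.3e-06) in E47 KO and 0.32 (SE 0.081, adjusted p = 0.0045) in E12 KO. The constitutive proteasome subunits Psmb5, Psmb6 and Psmb7, which Psmb8, Psmb9 and Psmb10 replace in the immunoproteasome, all rose in E47 KO, by 0.37, 0.72 and 0.41 (adjusted p = 0.0016, 1.8e-06 and 0.00063). The nonclassical class I gene H2-T23 was at 56.1 and 56.6 CPM in E47 KO, against 11.7 and 11.4 in E47 WT (2.28, SE 0.103, adjusted p = 9.8e-11), and changed by -0.14 (adjusted p = 0.26) in E12 KO. Of 7 MHC class II genes 4 were tested, of which 0 rose and 2 fell in E12 KO, and 1 rose and 1 fell in E47 KO. H2-DMb1, a subunit of the chaperone that loads class II peptides, was at 5.16 and 4.51 CPM in E12 KO, against 12.8 and 13.2 in E12 WT (-1.42, SE 0.151, adjusted p = 2.2e-06), and changed by -0.10 (adjusted p = 0.59) in E47 KO. H2-DMa, its partner, fell by 0.99 in E12 KO (SE 0.364, adjusted p = 0.038) and by 0.90 in E47 KO (SE 0.266, adjusted p = 0.0099). The class II chains H2-Aa and H2-Ab1 were at most 0.149 CPM in every library.

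The other lists showed no single direction either. The shares of all genes to set beside their counts are 21.9% higher and 24.5% lower in E12 KO, and 27.7% higher and 27.5% lower in E47 KO. Of 12 tested nucleic acid sensing genes, 1 rose and 4 fell in E12 KO, and 2 rose and 4 fell in E47 KO. Tmem173, which encodes STING, fell by 0.98 in E47 KO (SE 0.141, adjusted p = 3.6e-05), as did the DNA sensor Cgas (-1.08, SE 0.22, adjusted p = 0.00076), and in E12 KO they changed by -0.14 (adjusted p = 0.44) and -0.01 (adjusted p = 0.97). Ddx58, the sensor RIG-I that Trim25 activates, changed by -0.03 in E12 KO (adjusted p = 0.78) and by -0.07 in E47 KO (adjusted p = 0.51). Of 9 tested negative regulators 3 rose and 3 fell in E12 KO, and 1 rose and 0 fell in E47 KO, which was Socs3 (1.36, SE 0.091, adjusted p = 9.6e-09). Of 8 NF-kB pathway genes 3 rose and 1 fell in E12 KO, and 5 rose and 1 fell in E47 KO.

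Marker genes bear on what the libraries contained. Each of the 7 endothelial markers was lower in E47 KO than in E47 WT, and their summed level was 3.01 to 3.79 CPM in E47 KO and 622 to 685 CPM in E47 WT, with 5.07 to 5.53 in E12 KO and 8.52 to 9.89 in E12 WT. Pecam1, Cdh5, Emcn, Vwf and Tie1 carried nearly all of it. Tek was at 1.07 and 1.68 CPM in E47 WT, against 0.255 and 0.224 in E12 WT. Kdr went the other way between the wild types, with 2.15 and 2.65 CPM in E47 WT against 5.17 and 2.84 in E12 WT. The E47 WT libraries also held 7.31 and 7.72 CPM of the female transcript Xist beside Y-linked Ddx3y at 137 and 154 CPM. The part of any other cells in the E47 KO changes and in the gap between the wild types was not tested, and in bulk RNA fewer cells of a type and less RNA per cell cannot be told apart. A fit without the E47 WT libraries gave 10 higher and 6 lower genes in E12 KO.

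The labelled cell type was only partly borne out by its defining markers. Acta2 was at 1626 and 1650 CPM in E12 KO, against 1929 and 1978 in E12 WT, and at 2117 and 2098 CPM in E47 KO, against 3693 and 3439 in E47 WT. Tagln and Myh11 were under 9 CPM in every library but those of E47 WT, where Tagln was at 18.5 and 17.0 CPM and Myh11 at 97.0 and 99.5. Outside E47 WT, Des was at 1.38 to 2.94 CPM and Cnn1 at 2.27 to 21.0. Higher levels there were those of Myl9 at 19.2 to 69.4 CPM, Lmod1 at 39.5 to 105 and Smtn at 111 to 132. All 8 smooth muscle markers were lower in E47 KO than in E47 WT, where 27.5% of all genes fell. In E12 KO 2 of the 8 rose, Smtn and Lmod1, and 4 fell, where 21.9% of all genes rose and 24.5% fell. The part of these 8 markers in the results for the 41 genes was not tested. Markers of immune cells were low: none of 8 lymphocyte markers passed the filter and 6 had 0 counts in all libraries, Cd79a and Ms4a1 being the others. Of 13 macrophage and dendritic cell markers 4 were tested (Cd68, Csf1r, Lyz2 and Cd14) and 4 had 0 counts throughout (Itgam, C1qa, C1qb and Siglech). Their summed level was 12.4 to 12.6 CPM in E12 KO, 12.2 to 12.3 in E12 WT, 11.4 to 11.6 in E47 KO and 15.4 to 16.4 in E47 WT, with single markers moving apart. Lyz2 was at 2.03 and 1.47 CPM in E47 KO, against 12.9 and 10.8 in E47 WT, and at 0.241 and 0.0601 CPM in E12 KO, against 1.15 and 0.598 in E12 WT. Cd14 was at 7.64 and 8.56 CPM in E47 KO, against 1.15 and 1.40 in E47 WT, and at 9.70 and 10.9 CPM in E12 KO, against 6.13 and 7.47 in E12 WT. Their part in the results for the 41 genes was not tested. The pan-leukocyte gene Ptprc was at most 0.149 CPM. Tcf3, the targeted gene, was higher in both knockouts, and a count per gene does not separate the E12 and E47 exons, so it does not check the labels.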

How the data were processed

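The table deposited by the authors gives counts of reads for each gene symbol as whole numbers, unnormalized and unpooled, in 1 column per library. Per the labels, libraries were polyA-enriched and unstranded. Per the submitters' processing notes, FastQC, HISAT, featureCounts and GRCm38 (mm10) were used. The sources used here give no versions or settings and do not say how multiply matching reads were handled, so counts of near copies and of overlapping antisense genes can be mixed.

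The analysis ran in R 4.3.3 with edgeR 4.0.16. Its filter for 4 groups left 13992 genes. A gene high in 1 group alone could pass it, as Usp18 and Ifi44 did through E47 WT. Libraries were scaled by TMM, 1 model of the 4 groups was fitted to all 8 libraries, and contrasts used the quasi-likelihood F test with Benjamini-Hochberg adjustment over all genes tested. Past the test means an adjusted p under 0.05. Over all genes the fit estimated a biological coefficient of variation of 0.0598, on 4 residual degrees of freedom. SE is that of the log2 change. CPM use TMM-scaled library sizes, and values are listed in replicate order. Replicates differed by more than counting noise in every group (chi-square per degree of freedom 4.45 to 13.1), so none was merged in the fit. The counting intervals for Usp18 and Ifi44 do add the 2 libraries of a genotype and leave out that extra variation. The steps were tested on simulated data. The 41 genes, the other gene lists, the tests and the alternatives (DESeq2 1.42.0, other scalings, filters, subsets and leaving out each library) were chosen with earlier results of these data known. Values in every library are given for the pathway factors, Isg15, the 6 antigen presentation genes and the 5 genes with the lowest p in each comparison; the others were chosen after their values were seen. Exon lengths, overlaps and shared sequence come from GENCODE M21, and promoters from RefSeq GRCm38.p6. The result for 1 gene of the pathway lists is not reported here.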

Additional observations from a re-analysis of the deposited data

Results flagged for a closer look

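For 13 genes the test of the difference itself set the E12 KO change apart from the E47 KO change (edgeR quasi-likelihood test). The log2 difference, E12 minus E47, was 3.42 for Usp18, 2.34 for Isg15, 2.21 for Bst2, 1.95 for Ifit1, 1.54 for Trim25 and 0.48 for Ifi27. It was -1.68 for Ifit3b, -1.17 for Irf1, -1.13 for Ifi35, -1.04 for Tap1, -0.85 for Ifit3, -0.59 for H2-K1 and -0.52 for H2-D1. Of these, Usp18 rests on 2 counts in E12 WT and Isg15 on 1 of the 2 E12 KO libraries. Usp18 also passed the filter only through E47 WT, whose level enters its difference.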

How the results depend on the processing

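For the 20 genes named by rule, 1417 values were compared over the alternatives, of which 1345 kept their direction and side of the threshold, 25 lost and 29 gained a call, and 18 changed sign, none of the last past the test in either setting. The count of genes lower in E47 KO ran from 5 to 10 over the fits without 1 library, with 5 without E47 KO replicate 1 and 6 without E47 WT replicate 2. Over the fits without 1 library, these log2 values changed sign. In E12 KO, Irf1 ran from -0.15 to 0.030, Isg15 from -0.036 to 2.30, Psmb9 from -0.20 to 0.82 and Ifi27 from -0.087 to 0.12. In E47 KO, Irf7 ran from -0.58 to 0.34. In the difference of changes, B2m ran from -0.067 to 0.15 and was -0.030 with upper-quartile factors. In E12 WT against E47 WT, Psmb9 ran from -1.09 to 0.082. In E12 KO against E47 KO, Irf7 ran from -0.074 to 0.84, Isg15 from -1.57 to 0.76 and Psmb8 from -0.54 to 0.14. The cause was not tested. DESeq2 called 6 genes higher and 7 lower in E47 KO. The difference of changes could not be fitted on the groups of 1 contrast. No paired analysis was possible because the labels give the libraries distinct numbers that pair none across groups. Genes rest on few counts where they are under about 1 CPM. Ifi44 and Ifitm1 were so in every library, Usp18 in all but E47 WT replicate 2, and Gbp3 in the E12 line.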

Other observations

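Irf5, an interferon regulatory factor outside the 41 genes, was at 6.66 and 7.09 CPM in E12 KO, against 17.7 and 17.0 in E12 WT, and at 4.21 and 4.28 CPM in E47 KO, against 1.29 and 1.13 in E47 WT. Both knockouts lay between the 2 controls. It fell by 1.34 (SE 0.121, adjusted p = 3.9e-07) in E12 KO and rose by 1.83 (SE 0.207, adjusted p = 3.1e-06) in E47 KO, a difference of -3.17 (SE 0.238, adjusted p = 4.9e-08, edgeR quasi-likelihood test). Ifnlr1, the receptor chain for type III interferon, rose by 1.47 (SE 0.317, adjusted p = 0.0012) in E47 KO, with 2.34 and 1.67 CPM against 0.645 and 0.780 in E47 WT. It was at 4.63 and 5.59 CPM in E12 KO and at 4.72 and 5.38 in E12 WT.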
